A study of Mus musculus with 2 samples.

Results

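The genes of the TGF-beta and BMP pathways were examined in cultured mouse embryonic endothelial cells with and without Snail1. The set has 48 genes, chosen by name for their place in the pathway (ligands, receptors, Smads, Id proteins, inhibitors and latency proteins). The choice was made with earlier results of these data known, so shares of members beside those of all genes are descriptive only. Each of the 48 genes has at least 1 probe set that the platform annotation assigns to that gene alone, of 18193 genes so covered in all. The set holds 46 of the 12874 genes that were analysed further, and Smad9 and Nog were too dim to be counted.

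Primary endothelial cells were taken from C57/BL6 embryos at embryonic day 10.5 that carried Snail1 f/f, a floxed allele that Cre recombinase can delete. The WT ECs received an adenovirus with β-galactosidase and the Snail1 KO ECs an adenovirus with Cre, followed by recovery over days. Both groups share the floxed allele, the serum and endothelial growth factors of the medium, and adenoviral infection. Each group is 1 sample on 1 Affymetrix array, whether embryos were pooled is not stated, and no sample received Cre without the floxed allele, so the loss of Snail1 and an effect of Cre or of its virus cannot be told apart. With 1 array a group there is no replicate error, so no difference below was tested and each is described by its size.

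The TGF-beta family comprises secreted dimers, among them the TGF-betas, the BMPs and the activins, that bring together type I and type II receptor kinases at the cell surface. The type I kinase phosphorylates receptor-regulated Smads, which join Smad4 and enter the nucleus. In endothelium the BMP9 arm of the BMP branch runs largely through ACVRL1 (ALK1) with the co-receptor endoglin and raises the Id genes. The TGF-beta branch is known for promoting endothelial-to-mesenchymal transition, in which Snail1 is an established transcriptional effector.

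Snai1, read by 1 probe set, had a log2 expression value of 5.33 in WT ECs and 3.59 in Snail1 KO ECs. The labels do not say which exons are deleted, so this value may not read the deleted part. The 4 control probe sets for the Cre gene lay between 2.69 and 3.83 on the WT array and between 11.87 and 12.86 on the Snail1 KO array. All 8 endothelial markers were well above the filter level on both arrays, with Cdh5 (VE-cadherin) at 11.34 and 11.46. They were not all level between the arrays: 6 were higher and 2 lower on the Snail1 KO array, from Cldn5 (claudin 5), 2.11-fold higher, to Emcn (endomucin), at -0.40 on the log2 scale. Markers of other cells were present too. Among 6 fibroblast markers, Thy1 was at 11.43 and 11.37 and Dcn at 9.45 and 9.62, while Pdgfra and Lum lay under the filter level in WT and Snail1 KO ECs. The mean log2 value of the 8 smooth muscle and pericyte markers was 6.12 on the WT array and 5.32 on the Snail1 KO array. Of these, Myh11 and Rgs5 were on average under the filter level. Of the 6 analysed, 4 were lower, most of all Tagln and Acta2, and 2 (Des and Cspg4) were higher by at most 0.10. Of the 8 leukocyte markers, Ptprc (CD45), Tyrobp and Itgam were under the filter level, while Cd14 was at 8.43 and 8.60. Among 6 epithelial markers, Cdh1 (E-cadherin) was under it and Krt19 was at 6.47 and 5.10.

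As a set, the TGF-beta and BMP genes were centred where all genes were, and a few members stood away from the centre. The median log2 difference (Snail1 KO minus WT) was 0.0093 over the 46 analysed members and -0.0083 over all 12874 analysed genes. Of the 46, 24 were higher and 22 lower by any size, and 52.2% higher compares with 48.9% of all analysed genes. At least 2-fold higher were 2 members, Tgfb3 and Tgfbr3, which is 4.35% of the members against 0.971% of all analysed genes. At least 2-fold lower was 1 member, Inhba, which is 2.17% of the members against 1.84%. With the threshold at 1.5-fold, 5 members were lower (Inhba, Bmp4, Fst, Bambi and Bmp6), a share of 10.9% against 6.08%. The 1.5-fold count in the higher direction stayed at 2 members, against 5.06% of all analysed genes. The middle 50% of analysed genes lay between -0.23 and 0.21, and 39 of the 46 members were within 1.5-fold.

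**Figure D1:**
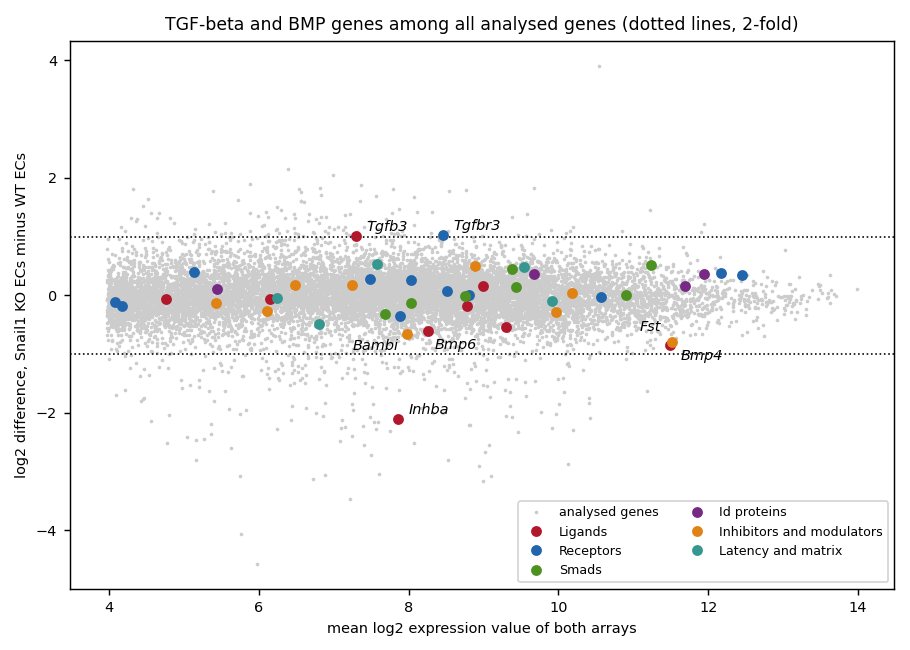
Log2 difference between the arrays (vertical axis, Snail1 KO ECs minus WT ECs) against the mean log2 expression value of both arrays (horizontal axis), for 12874 analysed genes in grey and the 46 analysed TGF-beta and BMP genes coloured by class; dotted lines mark 2-fold. Inhba lies lowest of the members at -2.11, and Tgfb3 and Tgfbr3 sit on the upper line at 1.01 and 1.02.

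The largest difference in the set belonged to Inhba, which encodes the activin A subunit. Its log2 value was 8.91 in WT ECs and 6.80 in Snail1 KO ECs. It was thus the brighter signal on the WT array, 4.31-fold over the other, and 44 of the 12874 analysed genes (0.342%) were lower by as much or more. A further Inhba probe set was dim on both arrays, at 3.09 and 3.19, and showed no such drop. Averaging both probe sets gave a log2 difference of -1.01. Inhbb, which encodes the activin B subunit, was at 6.18 and 6.11, and its second probe set read the same value on both arrays.

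All 4 BMP ligand genes were lower in the Snail1 KO ECs by some size, which is the sign of 50.9% of all analysed genes, although Bmp7 was at 0.0077 after centring by a running median along the mean level. Bmp4, a ligand of mesoderm and blood vessel formation, was at 11.92 in WT ECs and 11.07 in Snail1 KO ECs, 1.80-fold lower, and Bmp6 was at 8.56 and 7.95, 1.53-fold lower. Both are single probe sets, and 2.59% and 5.54% of all analysed genes were lower by as much. Bmp2 differed by -0.18 on the log2 scale and Bmp7, dim at 4.78 and 4.72, by -0.06. The BMP ligands that stood apart were therefore Bmp4 and Bmp6, neither past 2-fold.

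The 3 TGF-beta ligands differed from each other in direction. Tgfb3 was at 6.79 in WT ECs and 7.79 in Snail1 KO ECs, 2.01-fold higher in its only probe set. Tgfb2, a ligand needed for heart valve formation, was at 9.57 and 9.04, 1.45-fold lower, and its 4 probe sets were all lower, by -0.20 to -0.61. Tgfb1 was at 8.92 and 9.08, with its other probe set at 6.06 and 5.74, so that its probe sets gave opposite signs. On these arrays Tgfb2 was thus lower and Tgfb3 higher, while Tgfb1 had probe sets of both signs. With 1 array a group, none of these signs is settled. Over all 9 ligand and subunit genes, 7 were lower and 2 higher (6 and 3 with the running median). The 22.2% higher compares with 48.9% of all analysed genes. The median log2 difference of the 9 was -0.18, against -0.0083 over all analysed genes.

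The windows upstream of Inhba, Bmp4 and Bmp6, the lowest ligands, are shown because Snail1 is known to bind the E-box CAGGTG. They are RefSeq windows of build GRCm38.p6, the 250 bases before each gene's start, printed 5′ to 3′ on the gene's strand, with E-box letters of either strand (CAGGTG or CACCTG) in capitals. The windows are chr13:16011601-16011850 on the plus strand for Inhba, chr14:46390670-46390919 on the minus strand for Bmp4 and chr13:38345466-38345715 on the plus strand for Bmp6.
Inhba: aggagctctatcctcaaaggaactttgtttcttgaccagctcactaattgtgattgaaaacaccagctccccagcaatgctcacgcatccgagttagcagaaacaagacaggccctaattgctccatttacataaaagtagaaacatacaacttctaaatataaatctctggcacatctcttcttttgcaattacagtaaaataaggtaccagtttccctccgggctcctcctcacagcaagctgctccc
Bmp4: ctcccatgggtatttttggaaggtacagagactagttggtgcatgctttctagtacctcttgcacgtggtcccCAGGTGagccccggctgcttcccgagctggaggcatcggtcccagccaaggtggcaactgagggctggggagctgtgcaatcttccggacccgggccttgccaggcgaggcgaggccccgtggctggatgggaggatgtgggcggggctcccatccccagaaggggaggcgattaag
Bmp6: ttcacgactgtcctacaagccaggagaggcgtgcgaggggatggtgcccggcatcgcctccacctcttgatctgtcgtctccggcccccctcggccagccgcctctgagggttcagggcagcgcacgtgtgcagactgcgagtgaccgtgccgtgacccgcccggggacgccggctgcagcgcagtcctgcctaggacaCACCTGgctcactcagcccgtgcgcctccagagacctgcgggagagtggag

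The letters stood at position -177 from the start in Bmp4 and at -51 in Bmp6, and the Inhba window did not hold them. No window was available for the other members past 1.5-fold: Tgfb3 and Tgfbr3, which were higher, and Fst and Bambi, which were lower. The windows shown are therefore all of genes lower on the Snail1 KO array. Of the 35 members with a window in the table, 6 held the E-box in at least 1 window (Bmp4, Bmp6, Bmpr1b, Smad9, Ltbp2 and Ltbp4), or 17.1%, against 19.4% of 27025 genes. The share among members was near that of all genes, and the matches are letters in a window and not measured binding.

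Receptor genes were mostly within 1.5-fold, with Tgfbr3 outside that range. Tgfbr3 encodes betaglycan, the co-receptor that presents TGF-beta2 to its receptors and helps inhibins oppose activins. It was at 7.95 in WT ECs and 8.96 in Snail1 KO ECs, 2.02-fold higher. Its other probe set was dim, at 3.04 and 3.20, and the mean of both gave a log2 difference of 0.59. The 2-fold calls of Tgfbr3 and Tgfb3 sat at the threshold itself: after centring by a running median along the mean level they were 0.99 and 0.98. Endoglin, Eng, the co-receptor of the ALK1 complex, was at 11.98 and 12.36 in its brightest probe set and higher by 0.25 in the other.

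Among the type I receptors, Acvrl1 (ALK1) was the lowest. It was at 8.05 in WT ECs and 7.70 in Snail1 KO ECs, and its second probe set at 7.93 and 7.38. Both were lower, by -0.35 and -0.55, a direction opposite to that of Eng. Tgfbr1 (ALK5), the type I receptor of the TGF-betas, was at 7.34 and 7.62, a log2 difference of 0.28. Acvr1 (ALK2) was at 8.80 and 8.81 in its brightest probe set but at 6.17 and 6.90 in another, so its probe sets disagreed by 0.72. Acvr1b differed by 0.07. The BMP type I receptors Bmpr1a, at 4.26 and 4.08, and Bmpr1b, at 4.12 and 4.01, lay just above the filter level of 3.97 and carried little signal on either array.

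Of the 4 type II receptors, 3 were higher and 1 was lower by any size, where 48.9% of all analysed genes were higher. Tgfbr2, the TGF-beta type II receptor, was at 12.28 in WT ECs and 12.62 in Snail1 KO ECs, with a further analysed probe set higher by 0.40. Acvr2b, an activin receptor, was at 4.93 and 5.32, with another probe set higher by 0.07. Acvr2a differed by 0.26 and -0.13 in its 2 probe sets, and Bmpr2 by -0.03 in its brightest and -0.38 and -0.18 in the others. None of these reached 1.5-fold. Over all 12 receptors and co-receptors, 8 were higher and 4 lower, and 66.7% higher compares with 48.9% of all analysed genes. The median of the 12 was 0.16, against -0.0083 over all analysed genes.

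**Figure D2:**
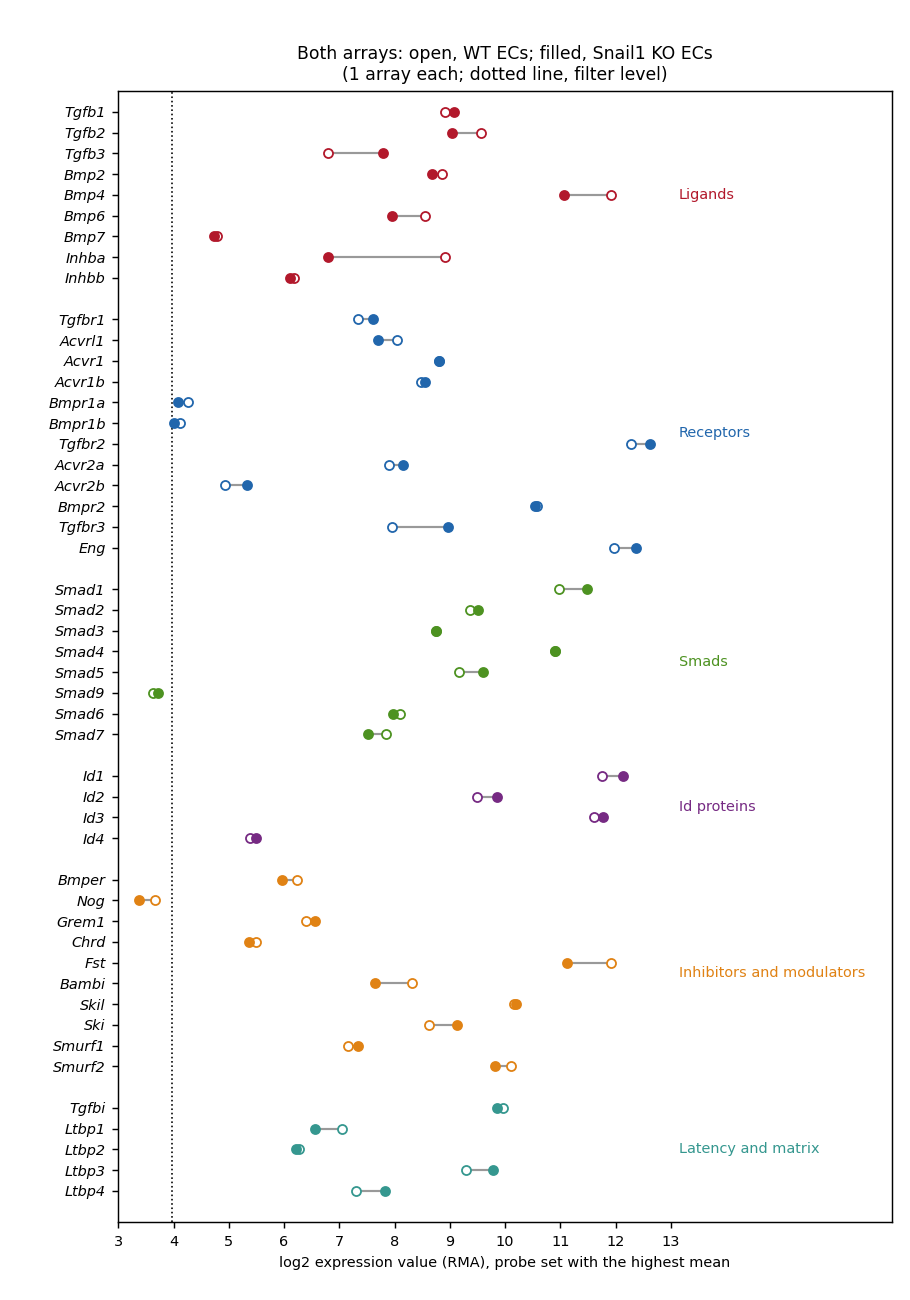
Log2 expression values of the 48 genes by class, from the probe set with the highest mean of each gene (horizontal axis); open circles are the WT array, filled circles the Snail1 KO array, and the dotted line is the filter level of 3.97. Inhba spans the widest gap, 8.91 to 6.80, while most pairs of circles nearly touch; levels of different genes cannot be compared, since probe sets differ in brightness.

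Smad genes showed small differences, with higher probe sets in both the BMP and the TGF-beta branch. Smad1, which BMP receptors phosphorylate, was at 10.98 in WT ECs and 11.49 in Snail1 KO ECs, 1.43-fold higher, with all 3 probe sets higher by 0.37 to 0.53. Smad5, of the same branch, was at 9.16 and 9.60, with another probe set higher by 0.46 and the remaining one at -0.24. Smad9 did not pass the filter, at 3.63 and 3.72. Of the Smads phosphorylated by TGF-beta and activin receptors, Smad2 was at 9.36 and 9.50, with its other probe set higher by 0.43. Smad3 was at 8.76 and 8.74, and its other probe sets differed by -0.02 and 0.39, so its sign is not settled. Smad4, the common partner, was at 10.90 and 10.91 in its brightest probe set, with the others higher by 0.39 and 0.18. Both inhibitory Smads were slightly lower: Smad6 was at 8.10 and 7.97 and Smad7 at 7.84 and 7.53. None of the 7 analysed Smads reached 1.5-fold in either direction, where 5.06% of all analysed genes were higher and 6.08% lower by that much.

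The Id genes, which encode dominant-negative helix-loop-helix proteins and are classical BMP targets, were each slightly higher in the Snail1 KO ECs. Id1 was at 11.76 in WT ECs and 12.13 in Snail1 KO ECs. Id2 was at 9.49 and 9.86, and Id3 at 11.60 and 11.77. Id4 was at 5.39 and 5.50 in its brightest probe set. The 4 log2 differences ran from 0.10 to 0.37, sizes that 12.9% or more of all analysed genes exceeded or matched in that direction. All 7 analysed Id probe sets were higher, but they belong to these 4 genes on the same arrays and are not separate readings of direction. Of all analysed genes, 48.9% were higher by any size. The widest disagreement among probe sets above the filter level was in Id4. Its second probe set went from 4.65 to 5.94, a log2 difference of 1.28. The remaining Id4 probe set, below the filter level on average, was higher by 0.75. The mean of all 3 Id4 probe sets gave 0.71.

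**Figure D3:**
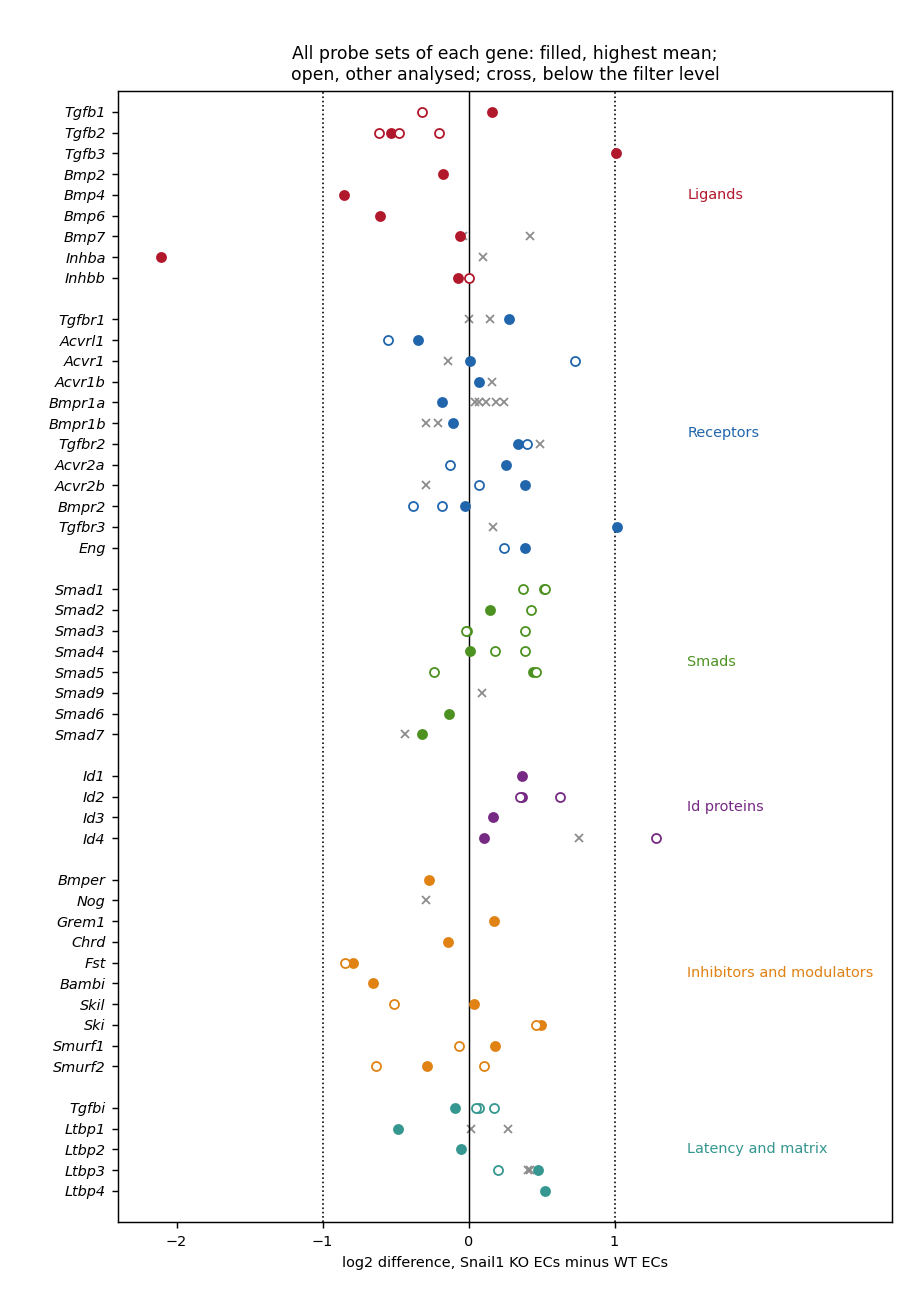
Log2 difference, Snail1 KO ECs minus WT ECs (horizontal axis), of all 106 probe sets of the 48 genes; filled circles are the probe set with the highest mean, open circles the others above the filter level, crosses those below it, and dotted lines mark 2-fold. The probe sets of Fst, Ski and Smad1 lie close together, while those of Id4 run from 0.10 to 1.28 and those of Acvr1 from 0.01 to 0.73 above the filter level.

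Among secreted inhibitors, Fst differed most. It encodes follistatin, which binds and neutralises activins. Fst was at 11.91 in WT ECs and 11.12 in Snail1 KO ECs, 1.73-fold lower, and its second probe set was at 11.85 and 11.00. Both probe sets were lower by close amounts, -0.79 and -0.85, and 3.01% of all analysed genes were lower by as much as the first. The gene for the activin A subunit and the gene for its inhibitor were therefore both lower on the same array. The BMP antagonists gave smaller values. Bmper, a BMP-binding protein of endothelium, was at 6.24 and 5.97, Grem1 (gremlin) at 6.39 and 6.57, and Chrd (chordin) at 5.50 and 5.36. Nog (noggin) was below the filter level, at 3.66 and 3.37.

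Bambi, a receptor decoy that lacks the kinase domain, was at 8.31 in WT ECs and 7.65 in Snail1 KO ECs, 1.57-fold lower in its only probe set. Ski, a nuclear corepressor of Smads, was higher in both of its probe sets: at 8.63 and 9.13 in the first, and by 0.46 in the second. Its relative Skil (SnoN), a TGF-beta target that also represses Smads, was at 10.16 and 10.20 in its brightest probe set, while another was lower by -0.51. Smurf2, a ubiquitin ligase for receptors and Smads, was at 10.11 and 9.82, and its other probe sets differed by -0.63 and 0.10. Smurf1 differed by 0.18 and -0.06. Within this class 2 of 9 analysed genes, Fst and Bambi, were at least 1.5-fold lower (22.2%, against 6.08% of all analysed genes), and none was 1.5-fold higher.

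The latent TGF-beta binding proteins, which hold TGF-beta in the matrix in inactive form, differed in both directions. Ltbp4 was at 7.31 in WT ECs and 7.83 in Snail1 KO ECs, 1.44-fold higher. Ltbp3 was at 9.30 and 9.78, with its other analysed probe set higher by 0.20. Ltbp1 went the other way, at 7.04 and 6.56, but its other probe sets, below the filter level, did not follow, and the mean of all 3 was -0.06. Ltbp2 was at 6.27 and 6.22. Tgfbi, a matrix protein named for its induction by TGF-beta, was at 9.96 and 9.86, and its 4 probe sets ran from -0.10 to 0.17. None of these 5 genes reached 1.5-fold.

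Agreement between probe sets varied over the set. The 48 genes had 106 probe sets, of which 81 were above the filter level. Of the 24 members with several analysed probe sets, 15 had a single sign in all, 8 had both signs and Inhbb had 1 at no difference. Fst is the only member past 1.5-fold that a second analysed probe set also measured. Inhba, Tgfb3, Tgfbr3, Bmp4, Bmp6 and Bambi each rest on 1 analysed probe set.

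Other genes of the family and genes known to respond to it were read from lists. These lists were chosen with earlier results of these data known, so their shares beside those of all genes are descriptive only. Among 24 other ligand genes, only 18 had a probe set assigned to that gene alone. Of these, 9 were too dim and 9 were analysed, with a median log2 difference of 0.01. Gdf10 (BMP3B) was 2.60-fold higher, at 5.98 in WT ECs and 7.35 in Snail1 KO ECs. Lefty1, a Nodal antagonist, was at 6.93 and 7.34, and Gdf2, the gene of the ALK1 ligand BMP9, at 5.69 and 5.51. Of other receptors and co-receptors, 4 of 8 were analysed, and Neo1 (neogenin, a receptor of repulsive guidance molecules) was at 9.89 and 10.74. Its 5 analysed probe sets ran from -0.24 to 1.15. Among 23 other secreted modulators, 22 had such a probe set and 15 were analysed. Of the 15, 1 was at least 2-fold lower (6.67%, against 1.84% of all analysed genes) and none at least 2-fold higher. The lower gene was Tll1, a protease of the BMP1 family that cleaves chordin, at 6.87 and 5.72. Fstl3, a follistatin relative that also binds activins, was at 6.31 and 5.69, 1.54-fold lower. Other intracellular regulators were all analysed. Taking 1 value a gene, 22 of 24 were higher by any size (21 with the running median), against 48.9% of all analysed genes. Their median was 0.17, and some were near no difference, such as Xiap (0.004) and Map3k7 (0.02). Some had analysed probe sets of both signs. These ran from -0.85 to 1.07 in Sptbn1, -0.40 to 0.37 in Map3k7, -0.38 to 0.52 in Xiap and -0.33 to 0.46 in Hipk2. Others were higher throughout, such as Usp9x (0.21 to 0.77). Tgfbrap1, a protein that binds the TGF-beta receptors, was at 7.71 and 8.32. Tob1, an antiproliferative protein that binds Smads, was at 9.55 and 10.06. By the 1 value a gene, all 24 stayed within 2-fold.

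Genes that TGF-beta is known to raise were more often lower than higher on the Snail1 KO array. Of 17 listed, 16 were analysed, and 12 were lower and 4 higher by any size (11 and 5 after centring on the median difference, 10 and 6 with the running median), where 50.9% of all analysed genes were lower, with a median log2 difference of -0.29 against -0.0083 over all analysed genes. At least 2-fold lower were 3 of the 16 (18.8%, against 1.84% of all analysed genes), and none was 2-fold higher. Tagln (transgelin) was at 10.35 in WT ECs and 7.80 in Snail1 KO ECs, and Acta2 (smooth muscle actin) at 10.94 and 9.09. Both are markers of smooth muscle. Angptl4, an inhibitor of lipoprotein lipase, was at 8.49 and 6.91, and the NADPH oxidase Nox4 at 9.81 and 8.98, 1.78-fold lower. Pmepa1, a feedback inhibitor of TGF-beta signalling chosen after its values were seen, was at 6.96 and 6.52 with all 3 probe sets lower. It is among the 12 lower genes, and no count was made without it. Smad7, Skil and Tgfbi, members that TGF-beta is likewise known to raise, differed by -0.32, 0.04 and -0.10. Without Tagln and Acta2, a split made after the values were seen, 10 of 14 were lower, with a median of -0.21, and the 2-fold count dropped to 1 of 14 (7.14%). Of the 8 smooth muscle and pericyte markers, 6 were analysed: 4 were lower and 2 higher, with a median of -0.61, and their part in the lower TGF-beta response genes, or in Inhba, Bmp4 and Fst, was not tested.

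Genes linked in endothelium to BMP9 and ALK1 went both ways. They were not sorted by whether BMP9 raises or lowers them, so their signs and median do not measure pathway activity. Of 16 listed, 14 were analysed, with 8 higher (57.1%, against 48.9% of all analysed genes) and 6 lower by any size and a median log2 difference of 0.18. Esm1 (endocan) was at 8.68 in WT ECs and 6.13 in Snail1 KO ECs and the peptide gene Apln at 9.87 and 8.41, both at least 2-fold lower. Stab2, a hyaluronan scavenger receptor, was at 6.53 and 7.91, 2.60-fold higher. Gja4 (connexin 37) was dim, at 4.24 and 5.01. The list therefore holds 2 genes at least 2-fold lower (14.3%, against 1.84% of all analysed genes) and 1 at least 2-fold higher (7.14%, against 0.971%), beside Id genes that were all higher by less than 1.5-fold in their brightest probe sets. At 1.5-fold the balance turned: 5 of the 14 were higher (35.7%, against 5.06% of all analysed genes) and 3 lower (21.4%, against 6.08%).

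**Figure D4:**
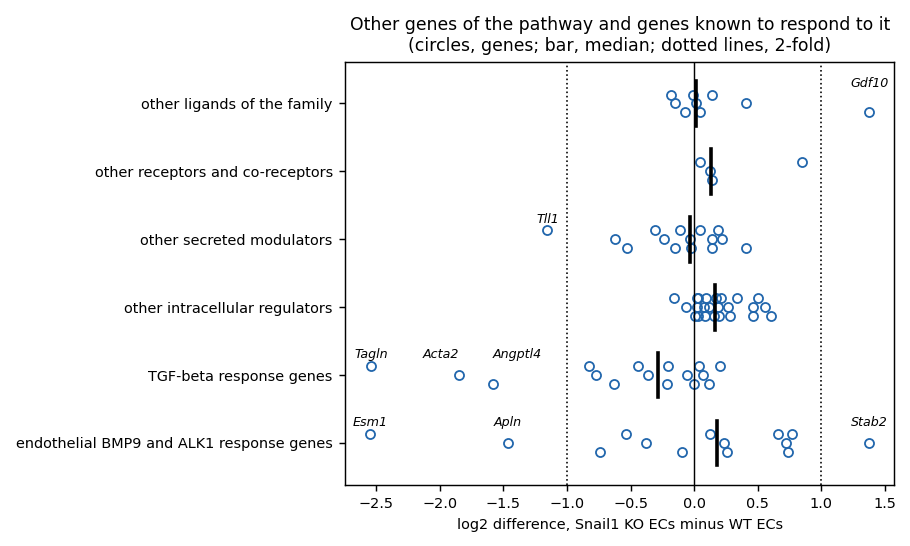
Log2 difference, Snail1 KO ECs minus WT ECs (horizontal axis), of the analysed genes in 6 lists outside the 48 (rows); circles are genes, bars the medians, and dotted lines mark 2-fold. The TGF-beta response genes have the lowest median, -0.29, with Tagln, Acta2 and Angptl4 past 2-fold, while the other intracellular regulators cluster between -0.16 and 0.60.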

How the data were processed

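The authors deposited log2 expression values, 1 for each probe set and array, made with the affy package and RMA (per the submitters' processing notes, which give no version). RMA corrects background, quantile-normalizes the arrays and summarises probes, so a change in total mRNA cannot be seen and differences of dim probe sets are compressed. No detection calls were used, and the number of arrays, 1 a group, limits the precision.

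Of 45101 probe sets, 64 were controls, 34945 had 1 gene symbol in GEO's platform annotation (which can be old), 932 had several and 9160 none here; only single-symbol ones were used. A gene's value was that of its probe set with the highest mean, and a gene was analysed if that mean passed the 40th percentile of probe sets, 3.97. This filter is not a detection call. Fold counts used 2-fold and 1.5-fold. Scripts ran in Python 3.11.15 with pandas 2.3.3 and were tested on simulated data. Members, lists and roles were chosen with earlier results of these data known. Named members were those past 1.5-fold, up to 4 of each role, and those whose probe sets disagreed, with the others given more briefly. Of each other list, up to 4 genes with the largest differences were to be named. Beyond that rule, some intracellular regulators were named for small differences or for the range of their probe sets. Pmepa1 was also added to the named TGF-beta response genes. Cell type markers were named to check the label. Alternatives were other filters, probe set rules, centrings and fold sizes. Promoter windows came from RefSeq (GRCm38.p6), matched by symbol.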

Additional observations from a re-analysis of the deposited data

How the results depend on the processing

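No replicate could be left out, and no paired analysis was possible because each group holds 1 array. The count of members at least 2-fold higher was 2 as reported, 1 (Tgfb3) when all probe sets of a gene were averaged, 0 with differences centred by a running median, and 0 at 3-fold. The count at least 2-fold lower was 1 (Inhba) under each filter, probe set and centring alternative and at 3-fold, and 5 at 1.5-fold. The median over members stayed between 0.0093 and 0.058 in all settings. With all probe sets averaged, Inhba was at -1.01, Tgfbr3 at 0.59, Id4 at 0.71 and Ltbp1 at -0.06. With the mean of the analysed probe sets, an alternative chosen after seeing the data, Id4 was at 0.69. Of 313 pairs of a gene and an alternative, these 5 moved by more than 0.40 log2 units, the SD between probe sets of a gene. The sign differed from the reported one in 10 pairs, over 5 genes, all of them under 1.5-fold. Dim probe sets, such as those of Bmpr1a and Bmpr1b, can hide a difference.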
